A study of Mus musculus with 8 samples.

Results

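Aminoacyl-tRNA synthetases are the enzymes that join each amino acid to its transfer RNA (tRNA), the step that makes amino acids ready for the ribosome. The 36 genes described here were taken by name from the 13725 genes of the deposited table: 20 encode cytosolic enzymes and 16 encode mitochondrial enzymes, whose symbols end in 2. All 36 were found, all 36 were tested, and none was at the lowest value of the table in any library.

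RNA came from pancreatic islets, the hormone-secreting cell clusters of the pancreas, of female NOD mice 10 weeks old. NOD is an inbred strain that develops autoimmune diabetes, and both groups were of this strain. The vehicle group had 4 libraries (replicates 1, 3, 4 and 5) and the PAHSA group had 4 (replicates 1, 2, 3 and 4). PAHSA, written PASHA in part of the sample labels, is a family of lipids in which palmitic acid is esterified to hydroxy stearic acid, and no dose, route or duration of treatment is stated in the labels. The design text counts 4 mice per group, while the extraction protocol describes islets pooled from 2 mice per set, so a library may be 1 mouse or a pool, and a p-value here speaks only of library-to-library spread. The study's title places the work on senescence, beta cell stress and Mdm2/p53. The one comparison asks which transcripts differ between PAHSA and vehicle islets.

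Cytosolic synthetases charge the tRNAs that read nuclear messages, and several of them sit together in a particle called the multisynthetase complex. Mitochondrial synthetases are made in the cytosol, imported, and charge the tRNAs that read the few messages of the mitochondrial genome. Many cytosolic synthetase genes are known targets of ATF4, the transcription factor of the integrated stress response, which is switched on when amino acids run short or when unfolded proteins build up in the endoplasmic reticulum, a common load in insulin-secreting cells.

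Values are log2 CPM, where CPM are counts scaled to a common library size, and every difference is PAHSA minus vehicle on that scale. Recovered estimated counts were 34461742 to 45236238 per vehicle library and 35356278 to 39359123 per PAHSA library. Beta cell markers, 10 of 10 present, made up 13.8% to 16.8% of a library's summed CPM in vehicle and 14.5% to 17.3% in PAHSA. Markers of acinar cells, the enzyme-secreting cells around the islets, made up 1.28% to 4.65% of it in vehicle and 0.0546% to 1.87% in PAHSA libraries. All 21 tested acinar markers of 22 were lower in PAHSA (median −2.38). The untested marker, Ptf1a, was at the lowest value in 2 libraries. Duct markers had a median difference of −0.73 over 7 genes and stellate and fibroblast markers of −0.94 over 9. In such bulk libraries, fewer cells of a type and less RNA per cell cannot be told apart.

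No synthetase gene passed the test. With limma and Benjamini-Hochberg adjustment over the 12231 genes tested, 0 of the 20 cytosolic and 0 of the 16 mitochondrial genes had an adjusted p under 0.05. The share called over all genes was 0%, with a smallest adjusted p of 0.671. At an unadjusted p under 0.05, 1 cytosolic gene (Eprs) and 1 mitochondrial gene (Ears2) were counted, both higher in PAHSA, beside 7.31% of all genes in either direction and 3.02% of all genes in the higher direction. Among the 21 acinar markers, 17 had such a p. No synthetase had groups that did not overlap, where 4.01% of all genes did.

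The median difference of the cytosolic genes was 0.08, 15 were higher and 5 lower, and the extremes were −0.20 for Kars and 0.29 for Eprs. Over all genes the median difference was −0.01 and 49.1% were higher. The median SE of a cytosolic difference was 0.15 and the median half-width of its 95% confidence interval was 0.33. Mitochondrial genes, which lay lower on the scale, had the same median difference of 0.08, with 11 higher and 5 lower, extremes of −0.53 for Sars2 and 0.64 for Ears2, and a median half-width of 0.66.

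**Figure D1:**
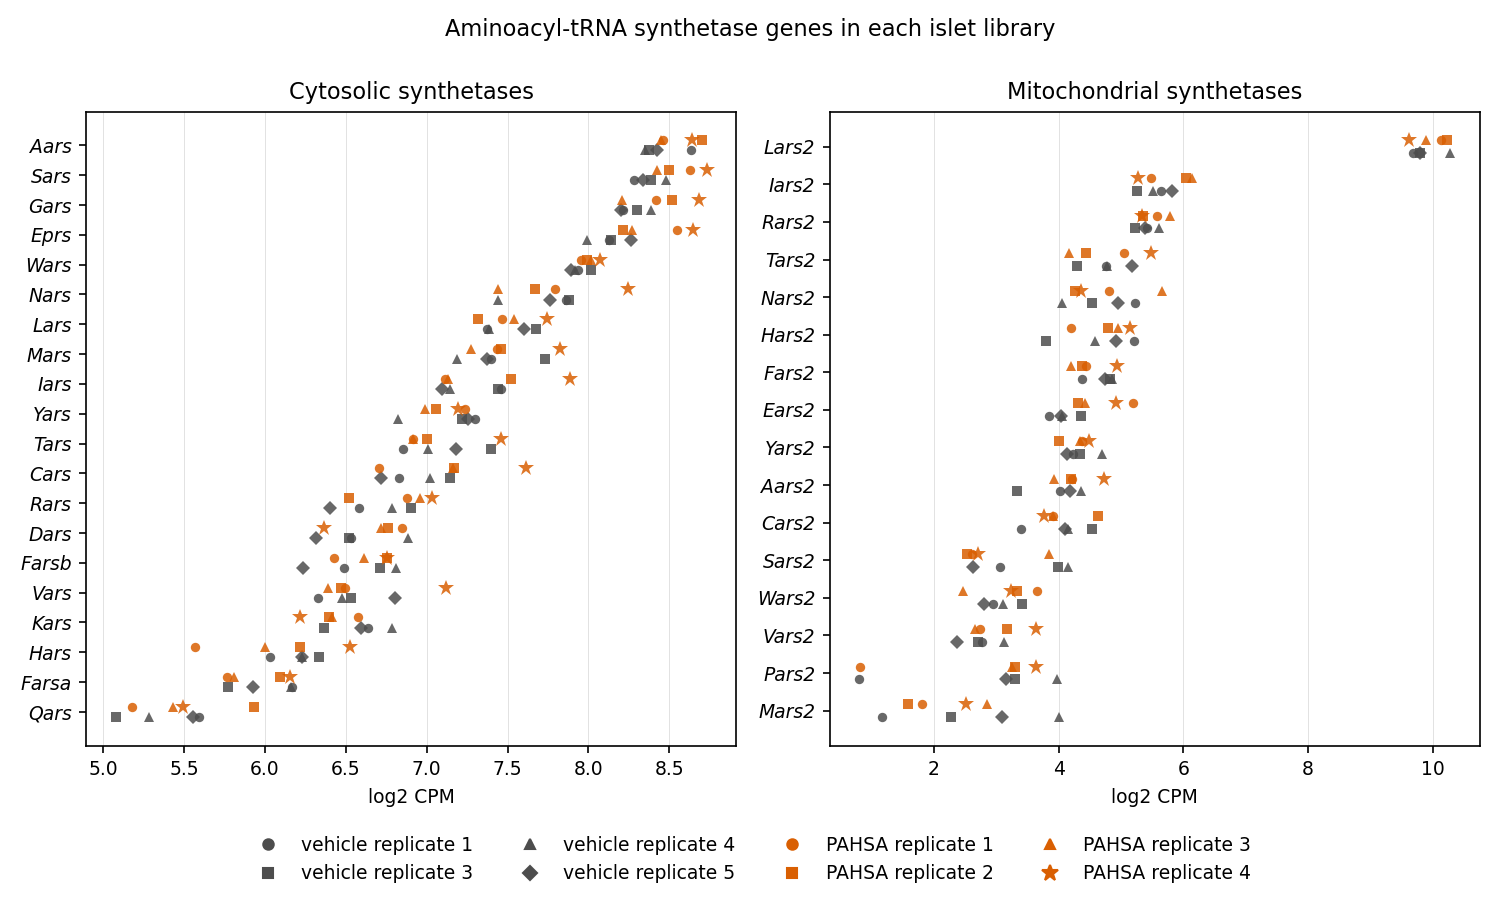
Log2 CPM (x axis) of each of the 20 cytosolic (left) and 16 mitochondrial (right) synthetase genes in the 8 libraries, with grey symbols for vehicle, orange for PAHSA and 1 symbol shape per replicate. The groups overlap for every gene, and the orange star of PAHSA replicate 4 is the rightmost symbol for 13 of the 20 cytosolic genes.

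Of the 8 enzymes of the multisynthetase complex, 7 were higher and 1 lower in PAHSA, with a median difference of 0.12 and 1 at an unadjusted p under 0.05. That gene was Eprs (ENSMUSG00000026615, chr1:185363044-185428360, plus strand), which encodes a bifunctional enzyme that charges the tRNAs for glutamate and for proline. Eprs stood at 8.12, 8.14, 7.99 and 8.26 in vehicle replicates 1, 3, 4 and 5 and at 8.55, 8.21, 8.27 and 8.64 in PAHSA replicates 1 to 4. PAHSA replicates 1 and 4 were well above all vehicle libraries, replicate 3 just above them, and replicate 2 fell inside the vehicle range. The difference was 0.29 (SE 0.12, 95% confidence interval 0.03 to 0.54, n = 4 and 4; limma p = 0.0298, adjusted p = 0.671; two-sided exact permutation p = 0.0571, the smallest possible being 0.0286). Without PAHSA replicate 4 it was 0.21, and with the acinar marker mean as a covariate 0.12.

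Kars (chr8:111993443-112011323, minus strand), the lysine enzyme, was the one member of the complex with a lower mean in PAHSA. Its vehicle values were 6.64, 6.36, 6.78 and 6.60 and its PAHSA values 6.58, 6.39, 6.41 and 6.21. Only vehicle replicate 3 lay within the PAHSA range, and the lowest of the 8 libraries was PAHSA replicate 4. The difference was −0.20 (SE 0.13, interval −0.48 to 0.09; limma p = 0.157, adjusted p = 0.761; exact permutation p = 0.171). The same gene is known to give both a cytosolic and a mitochondrial form of the enzyme by alternative splicing.

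Rars (chr11:35808381-35834506, minus strand) encodes the arginine enzyme of the complex. It was measured at 6.58, 6.90, 6.78 and 6.40 in vehicle and 6.88, 6.52, 6.96 and 7.03 in PAHSA. The groups were mixed, since PAHSA replicate 2 lay among the lowest libraries. Its difference of 0.18 (SE 0.15, interval −0.15 to 0.51) did not pass the test (limma p = 0.251, adjusted p = 0.826; exact permutation p = 0.257). It was 0.12 without PAHSA replicate 4, 0.09 without vehicle replicate 5 and 0.29 without PAHSA replicate 2. The remaining complex enzymes had differences of 0.13 for Qars (glutamine), 0.13 for Iars (isoleucine), 0.11 for Dars (aspartate), 0.07 for Mars (methionine) and 0.01 for Lars (leucine). The smallest limma p among these 5 was 0.48, for Dars.

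Of the 12 cytosolic enzymes outside the complex, 8 were higher and 4 lower, with a median difference of 0.07. Sars (chr3:108424865-108445209, minus strand) charges the serine tRNA and also the selenocysteine tRNA with serine. Its values were 8.28, 8.39, 8.48 and 8.34 in vehicle and 8.63, 8.50, 8.42 and 8.73 in PAHSA. PAHSA replicates 1, 2 and 4 lay above every vehicle library, and replicate 3 lay below vehicle replicate 4 alone. The difference was 0.20 (SE 0.09, interval −0.01 to 0.40; limma p = 0.0600, adjusted p = 0.687; exact permutation p = 0.0571), and 0.14 without PAHSA replicate 4.

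Gars (chr6:55038007-55079500, plus strand), the glycine enzyme, also serves both compartments from a single gene. Vehicle libraries held 8.22, 8.30, 8.39 and 8.20, and PAHSA libraries 8.42, 8.52, 8.21 and 8.68. PAHSA replicates 1, 2 and 4 were again above all vehicle libraries, while replicate 3 was among the lowest. Its difference was 0.18 (SE 0.11, interval −0.06 to 0.42; limma p = 0.131, adjusted p = 0.752; exact permutation p = 0.143), and it was 0.10 without PAHSA replicate 4.

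Cars (chr7:143557230-143600090, minus strand), the cysteine enzyme, showed the largest positive difference outside the complex. It read 6.83, 7.15, 7.02 and 6.72 in vehicle and 6.71, 7.17, 7.16 and 7.61 in PAHSA. A single library, PAHSA replicate 4, stood apart at the top, and PAHSA replicate 1 was the lowest of all 8. The difference of 0.23 (SE 0.18, interval −0.16 to 0.63; limma p = 0.218, adjusted p = 0.808; exact permutation p = 0.257) became 0.08 without PAHSA replicate 4 and 0.39 without PAHSA replicate 1.

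Aars (chr8:111033144-111057664, plus strand), the alanine enzyme, had 8.63, 8.37, 8.35 and 8.43 in vehicle and 8.46, 8.70, 8.45 and 8.64 in PAHSA. Vehicle replicates 3, 4 and 5 lay below all PAHSA libraries, but vehicle replicate 1 lay above PAHSA replicates 1 and 3. The difference was 0.12 (SE 0.10, interval −0.10 to 0.34; limma p = 0.260, adjusted p = 0.832; exact permutation p = 0.171). It was 0.18 without vehicle replicate 1 and 0.07 without PAHSA replicate 2. Of the 31-base words of Aars, 22.7% also occur in Exosc6, a gene on the same strand that overlaps it, so reads there could be assigned to either.

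Wars (chr12:108860030-108894174, minus strand) charges the tryptophan tRNA and is otherwise known for its induction by interferon-gamma. Values were 7.93, 8.02, 7.92 and 7.89 in vehicle and 7.95, 7.99, 8.02 and 8.07 in PAHSA. It was the tightest of the cytosolic genes: all 8 libraries lay within the span from 7.89 to 8.07, with vehicle replicate 3 inside the PAHSA range. The difference was 0.07 (SE 0.08, interval −0.11 to 0.24; limma p = 0.429, adjusted p = 0.888; exact permutation p = 0.114). The other free enzymes ran from −0.13 for Hars (histidine) to 0.08 for Vars (valine). Between them were −0.05 for Farsa and 0.08 for Farsb, the alpha and beta subunits of the phenylalanine enzyme, −0.04 for Tars (threonine), −0.03 for Yars (tyrosine) and 0.05 for Nars (asparagine).

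**Figure D2:**
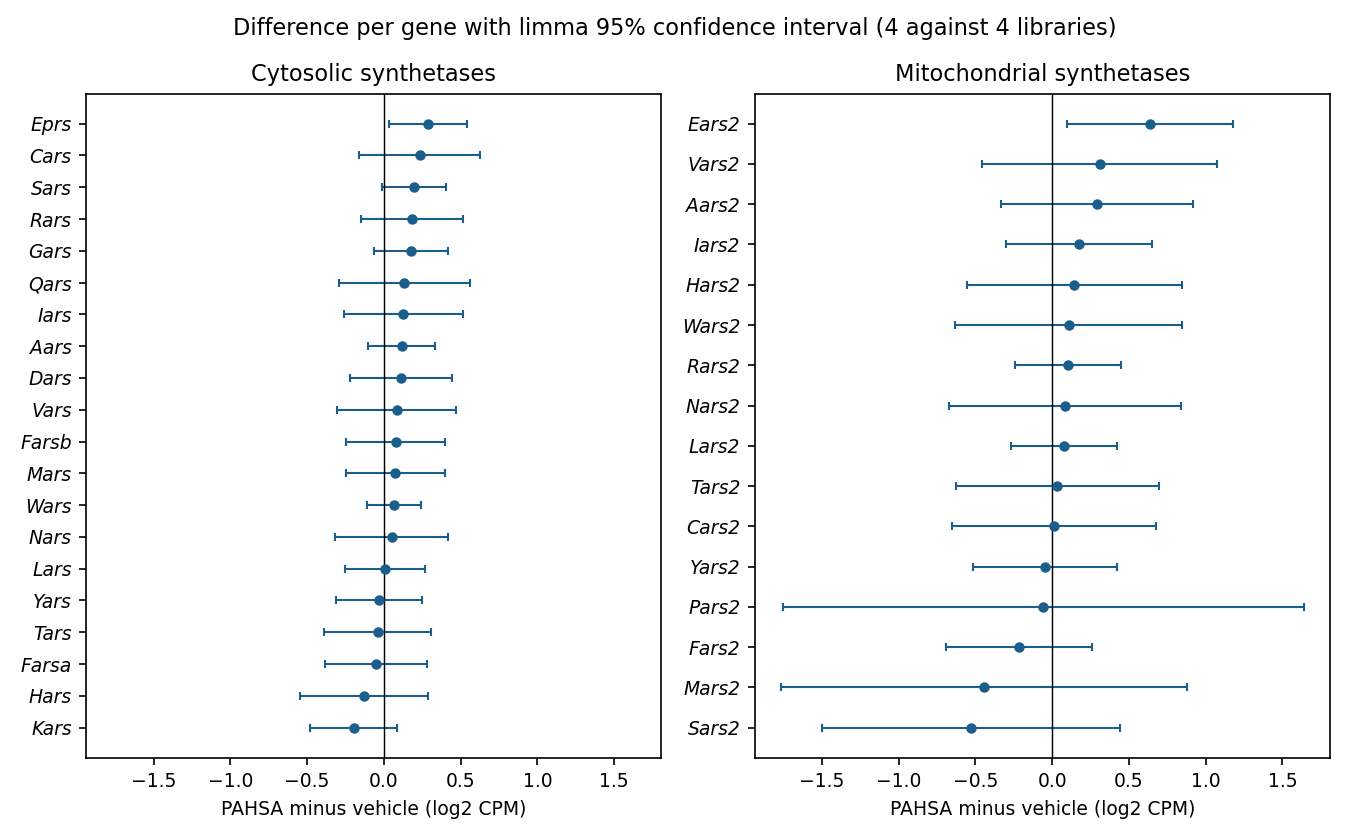
PAHSA minus vehicle difference in log2 CPM (x axis) of each cytosolic (left) and mitochondrial (right) synthetase gene, with points for the difference and bars for the limma 95% confidence interval from 4 against 4 libraries. The bars of Eprs and Ears2 alone stay to the right of 0, and the median half-width of a bar is 0.33 for cytosolic and 0.66 for mitochondrial genes.

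The cytosolic genes were highest in 1 library. PAHSA replicate 4 had the highest value of the 8 libraries for 13 of the 20 cytosolic genes, beside 14.4% of all genes tested, and 18 of the 20 were above their own mean there, beside 53% of all genes. The mean of the cytosolic genes was 7.42 in that library, against 7.11, 7.12 and 7.21 in the other PAHSA libraries and 7.11 to 7.20 in the vehicle libraries. Without PAHSA replicate 4, 10 of the 20 cytosolic genes were higher in PAHSA rather than 15, and their median difference was 0.003. The same library had the lowest share of acinar markers, 0.0546% of CPM, beside 0.454%, 1.87% and 1.16% in PAHSA replicates 1 to 3. With the acinar marker mean as a covariate, 10 of the 20 cytosolic genes were higher and their median difference was −0.03. Under that covariate each of the 8 genes given in full was closer to 0: 0.12 for Eprs, 0.11 for Sars, 0.08 for Gars, −0.08 for Kars, 0.06 for Cars, 0.04 for Rars, 0.08 for Aars and 0.03 for Wars. These 8 genes had been chosen for the smallest p without the covariate. The acinar marker mean itself differed by −2.18 between the groups and was lowest in PAHSA replicate 4, so covariate, group and that library cannot be fully told apart. The part of the acinar share in this pattern was not tested further.

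Within the cytosolic genes, the height of PAHSA replicate 4 was uneven. Of the 13 genes listed as known ATF4 targets, 11 had their highest value in that library and all 13 were above their own mean there. The mean deviation of these 13 genes was 0.33. Of the 7 cytosolic genes not listed as ATF4 targets, 2 had their highest value there and the mean deviation was 0.07. Amino acid synthesis genes of the ATF4 response, a list with no synthetase in it, had 9 of 12 members at their highest in the same library, with a mean deviation of 0.53. Integrated stress response regulators and markers had 4 of 19 at their highest there, with a mean deviation of 0.12 that was no higher than that of vehicle replicate 3 (also 0.12). Their median deviation was 0.07 in vehicle replicate 3 and 0.165 in PAHSA replicate 4. Amino acid transporter genes had 3 of 9 at their highest there, with a mean deviation of 0.29, the highest of the 8 libraries. Their median deviation, 0.13 in vehicle replicate 5, was 0.07 in PAHSA replicate 4. The 16 mitochondrial genes had 4 at their highest there and a mean deviation of 0.17, below the 0.26 of vehicle replicate 4. Between groups, 11 of the 13 ATF4-target synthetases were higher in PAHSA (median 0.08), as were 4 of the 7 others (median 0.08), and 0 genes of either list passed the adjusted threshold.

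**Figure D3:**
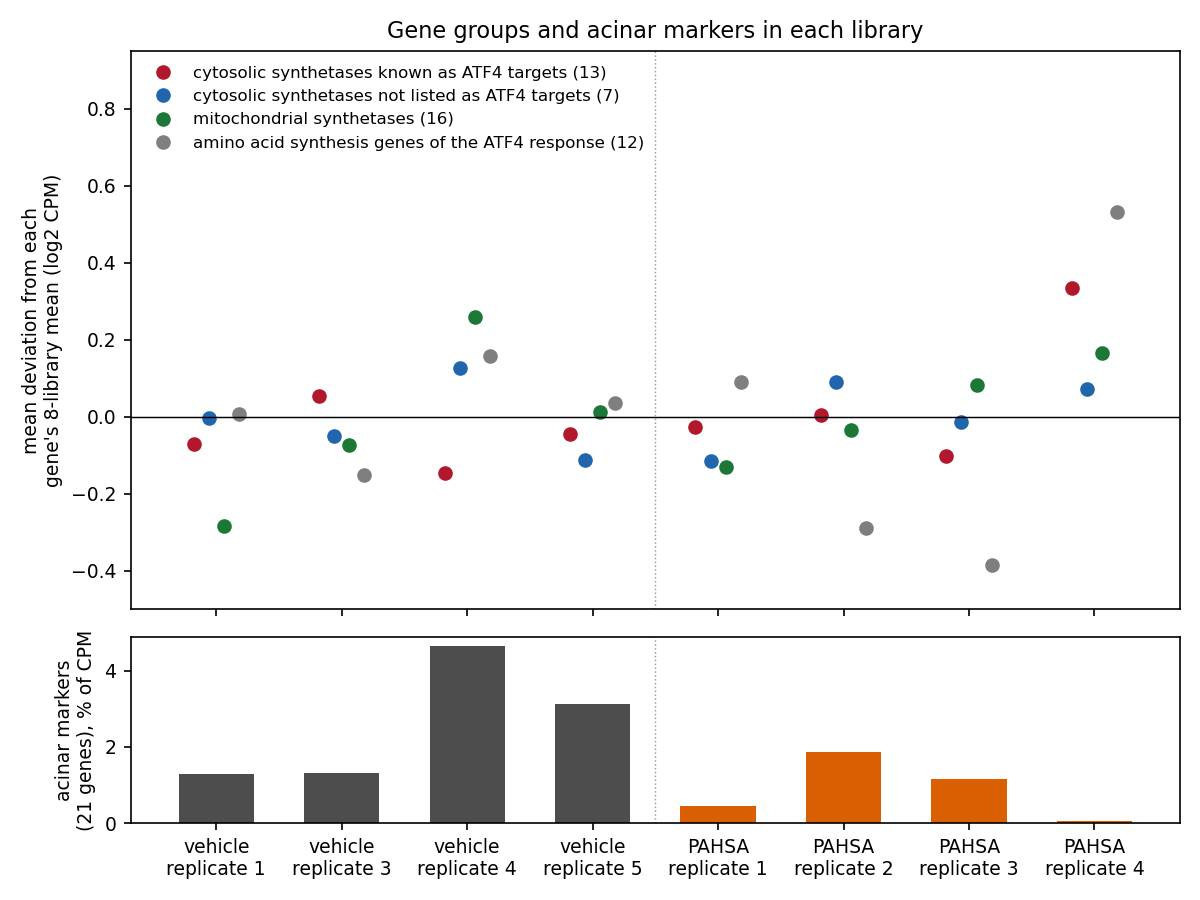
Upper panel: mean deviation (log2 CPM) of 4 gene groups from each gene's own mean over the 8 libraries, by library. Lower panel: share of acinar markers (21 genes) in percent of CPM. ATF4-target synthetases and amino acid synthesis genes are highest in PAHSA replicate 4, at 0.33 and 0.53, where the acinar bar is the lowest at 0.0546%.

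Promoter sequence of the members was searched, as planned, for the element through which ATF4 binds with C/EBP partners. Windows from 250 bases before to 50 after the start were taken from RefSeq (GRCm38.p6), and 27 of the 36 members had one. The core TGATGNAA, on either strand, was present in 5 of the 13 cytosolic windows and 0 of the 14 mitochondrial windows, beside 3.97% of all 32851 windows. All 5 belonged to genes of the ATF4 list (5 of its 8 windows, and 0 of the 5 other cytosolic windows). That list holds genes already known as ATF4 targets, so this split may follow from the list and says nothing about the libraries. The stretch around 1 core of each gene is shown because the core is the sequence feature that these synthetases share, 5′ to 3′ on the gene's strand, with the 8-base core in capitals. Where the core lies on the opposite strand it reads as its reverse complement, as it does in all stretches shown but that of Yars.
Yars: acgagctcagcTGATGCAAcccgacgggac
Gars: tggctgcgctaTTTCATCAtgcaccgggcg
Aars: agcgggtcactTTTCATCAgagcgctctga
Iars: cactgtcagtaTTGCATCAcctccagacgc
Tars: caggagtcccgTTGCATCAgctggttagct

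These stretches lie at chr4:129189895-129189924 for Yars, chr6:55037960-55037989 for Gars, chr8:111033840-111033869 for Aars, chr13:49682126-49682155 for Iars and chr15:11399655-11399684 for Tars, which alone is on the minus strand. The first base of the core was at −30 in Gars, 10 in Aars, 8 in Iars, −15 in Tars and 4 in Yars relative to the RefSeq start. In GENCODE all bases shown for Yars, Aars and Iars are exonic, as are 11 of the 30 for Tars and 0 for Gars. Gars, Aars and Iars had positive differences (0.18, 0.12 and 0.13), and Tars and Yars were close to 0 (−0.04 and −0.03). The ATF4-listed genes whose windows lacked the core, Eprs, Sars and Mars, had positive differences too (0.29, 0.20 and 0.07). A second motif, the E-box CACGTG, was found in 4 of the 13 cytosolic windows (Farsb, Aars, Iars and Tars) and in 1 of the 14 mitochondrial windows (Ears2), beside 7.15% of all windows. A match describes letters in the window and is not evidence of binding.

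Among the mitochondrial genes, Ears2 (ENSMUSG00000030871, chr7:122037213-122067263, minus strand), the glutamate enzyme, had the largest difference. Its values were 3.85, 4.35, 4.05 and 4.04 in vehicle and 5.19, 4.31, 4.42 and 4.92 in PAHSA. PAHSA replicates 1 and 4 were far above the vehicle libraries, replicate 3 slightly above them, and replicate 2 just below vehicle replicate 3. The difference was 0.64 (SE 0.24, 95% confidence interval 0.10 to 1.18, n = 4 and 4; limma p = 0.0252, adjusted p = 0.671; two-sided exact permutation p = 0.0571). It was 0.57 without PAHSA replicate 4, 0.48 without PAHSA replicate 1, and 0.40 with the acinar marker mean as a covariate. A neighbour on the opposite strand, Ubfd1, shares 2.93% of the 31-base words of Ears2, and the library kit does not mark strand. The cytosolic gene at the top of its list, Eprs, serves the same amino acid, and both genes were chosen for the smallest p of their lists. In both, PAHSA replicates 1 and 4 were the highest libraries and PAHSA replicate 2 the lowest of its group. The same was true of Ddit3, a stress response gene that is no synthetase. PAHSA replicates 1 and 4 also had the lowest acinar shares (0.454% and 0.0546%), and replicate 2 the highest of its group (1.87%). A link through the amino acid was not tested.

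Sars2 (chr7:28741992-28753871, plus strand), the mitochondrial serine enzyme, had the largest negative difference. Vehicle values were 3.05, 3.98, 4.14 and 2.63, and PAHSA values 2.60, 2.53, 3.85 and 2.71. Both groups were split, with vehicle replicates 3 and 4 and PAHSA replicate 3 near 4 and the other libraries near 3 or below. The difference was −0.53 (SE 0.44, interval −1.50 to 0.44; limma p = 0.254, adjusted p = 0.83; exact permutation p = 0.200), and the cytosolic serine enzyme Sars had a difference of the other sign, 0.20. Leaving out 1 library moved it between −0.30 (vehicle replicate 4) and −0.84 (PAHSA replicate 3); it was −0.35 without vehicle replicate 3 and −0.80 without vehicle replicate 5.

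Aars2 (chr17:45506841-45520843, plus strand), the alanine enzyme of mitochondria, read 4.03, 3.32, 4.35 and 4.19 in vehicle and 4.21, 4.21, 3.92 and 4.73 in PAHSA. Vehicle replicate 3 was the low end and PAHSA replicate 4 the high end of otherwise mixed groups, and the difference was 0.29 (SE 0.28, interval −0.33 to 0.92; limma p = 0.322, exact permutation p = 0.400). It was 0.08 without vehicle replicate 3 and 0.14 without PAHSA replicate 4. Fars2 (chr13:36117412-36726280, plus strand), the phenylalanine enzyme, read 4.37, 4.83, 4.86 and 4.75 in vehicle and 4.43, 4.38, 4.19 and 4.93 in PAHSA. Its PAHSA libraries lay near vehicle replicate 1 except replicate 4, which was the highest of all 8, and the difference was −0.22 (SE 0.22, interval −0.70 to 0.26; limma p = 0.336, exact permutation p = 0.400). It was −0.37 without PAHSA replicate 4, −0.33 without vehicle replicate 1 and −0.12 without PAHSA replicate 3.

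Vars2 (chr17:35655634-35667592, minus strand) charges the valine tRNA in mitochondria. It stood at 2.78, 2.70, 3.12 and 2.37 in vehicle and 2.75, 3.17, 2.65 and 3.64 in PAHSA, with PAHSA replicate 4 highest, and differed by 0.31 (SE 0.35, interval −0.46 to 1.072; limma p = 0.392, exact permutation p = 0.371). Without PAHSA replicate 4 the Vars2 difference was 0.11, and without vehicle replicate 5 it was 0.18. Iars2 (chr1:185284726-185329396, minus strand), the isoleucine enzyme, stood at 5.64, 5.26, 5.52 and 5.82 in vehicle and 5.49, 6.05, 6.14 and 5.27 in PAHSA. PAHSA replicates 2 and 3 were above all vehicle libraries and replicates 1 and 4 were not, and the difference was 0.17 (SE 0.22, interval −0.30 to 0.65; limma p = 0.437, exact permutation p = 0.514). For Iars2 this became 0.04 without PAHSA replicate 3, 0.07 without PAHSA replicate 2 or vehicle replicate 3, and 0.33 without PAHSA replicate 4. Of the 31-base words of Iars2, 36.8% are shared with Rab3gap2 on the opposite strand, so part of its value could belong to that gene. Adjusted p-values of these 4 genes ran from 0.849 (Aars2) to 0.890 (Iars2).

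With the acinar marker mean as a covariate the mitochondrial differences moved both away from and towards 0. Iars2 was 0.52 and Lars2 0.33, both then at an unadjusted limma p under 0.05, while Ears2 at 0.40 no longer was. Fars2 was −0.41, Sars2 −0.35, Rars2 0.21, Aars2 0.17 and Vars2 0.08, and no adjusted p was under 0.05.

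The other mitochondrial genes had small differences beside wide intervals, apart from Mars2 (methionine) at −0.45 with the interval −1.77 to 0.88. Hars2 (histidine) differed by 0.15, Wars2 (tryptophan) by 0.11, Nars2 (asparagine) by 0.08, Tars2 (threonine) by 0.03, Cars2 (cysteine) by 0.01, Yars2 (tyrosine) by −0.05 and Pars2 (proline) by −0.06. Pars2 was near 3 to 4 in 6 libraries but 0.80 in vehicle replicate 1 and 0.82 in PAHSA replicate 1. Mars2 spread from 1.17 to 4.00 among the vehicle libraries alone. The largest SDs of the mitochondrial list, 1.38 in vehicle and 1.30 in PAHSA were above the largest cytosolic SDs of 0.26 and 0.40.

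Levels were compared between genes per kilobase of the longest coding transcript, as mean CPM over the 8 libraries. Cytosolic genes spanned 15.8 (Qars) to 139.5 (Gars) CPM per kilobase, with a median of 47.1. The vehicle level of Gars was 130.5 ± 7.9 and its PAHSA level 148.5 ± 20.3 (mean ± SD, n = 4 each). Sars followed at 92.9 ± 5.44 and 106.7 ± 10.2, and Wars at 86.8 ± 3.23 and 90.9 ± 3.21. Next came Nars with an overall 80.2 and Eprs with 63.8. Wars and Nars, neighbours in this order, overlapped within their SDs (Nars 78.2 ± 10.4 and 82.2 ± 20.1), whereas the SDs of Gars and Sars did not overlap in either group. Per kilobase of coding sequence the same 3 genes led in another order, Sars at 232, Wars at 176.6 and Gars at 151.8.

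Mitochondrial genes had a median of 7.82 CPM per kilobase and a lowest value of 0.565, for Mars2. All but Lars2 and Rars2 lay below the lowest cytosolic gene, Qars. Per kilobase of coding sequence Tars2 (22.4), Nars2 (19.8) and Yars2 (19.3) were also above Qars (19.0). By that measure the lowest gene was Vars2 at 2.42, with Mars2 next at 3.63. Lars2 (ENSMUSG00000035202, chr9:123366927-123462666, plus strand), the mitochondrial leucine enzyme, had 253.9 CPM per kilobase, the highest of all 36 genes. Its values were 9.69, 9.80, 10.28 and 9.80 in vehicle and 10.14, 10.23, 9.89 and 9.62 in PAHSA. The groups overlapped, with vehicle replicate 4 the highest and PAHSA replicate 4 the lowest library, and the difference was 0.08 (SE 0.16, interval −0.27 to 0.42; limma p = 0.636, adjusted p = 0.939; exact permutation p = 0.743). It was 0.33 with the acinar covariate, 0.28 with quantile normalization and −0.12 with the stellate marker mean as a covariate, and ran from −0.01 (without PAHSA replicate 2) to 0.21 (without vehicle replicate 4) with 1 library left out. Of its 31-base words 1.09% occur in other genes, but a share of words does not give a share of reads. How many of its reads could belong to other genes was not tested. Lars2 also led per kilobase of coding sequence, at 365.4.

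Rars2 (chr4:34614957-34660167, plus strand), the mitochondrial arginine enzyme, was the next mitochondrial gene, at 23.8 CPM per kilobase. Its log2 CPM was 5.41, 5.23, 5.61 and 5.39 in vehicle and 5.58, 5.35, 5.78 and 5.34 in PAHSA. PAHSA replicates 1, 2 and 4 lay within the vehicle range and replicate 3 was the highest, with a difference of 0.10 (SE 0.16, interval −0.25 to 0.45; limma p = 0.529, adjusted p = 0.912; exact permutation p = 0.486). With 1 library left out it ran from 0.01 (PAHSA replicate 3) to 0.17 (vehicle replicate 4). Fars2 at 11.5 and Ears2 at 10.7 came after Rars2, whereas per kilobase of coding sequence Tars2 and Nars2 did.

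**Figure D4:**
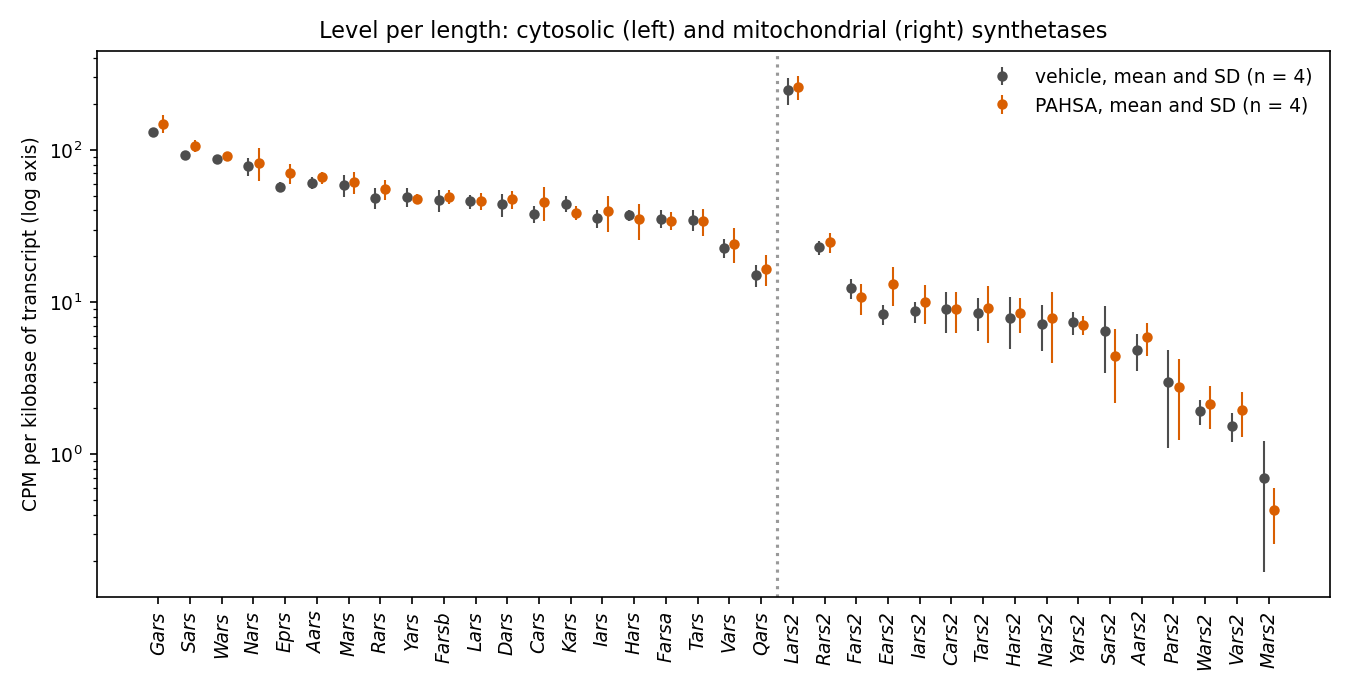
Mean CPM per kilobase of transcript (log axis) with SD over 4 libraries, for vehicle (grey) and PAHSA (orange), with genes ordered by level within the cytosolic (left) and mitochondrial (right) enzymes. Gars leads the cytosolic genes at 130.5 and 148.5, and Lars2 stands above all others at 247.2 and 260.6.

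The genes that share reads bear on single members. Of the 20 cytosolic genes, 12 shared no 31-base word with another gene, and 3 shared over 10%: Aars, Iars at 17.7% (mostly with Gm4849) and Farsb at 10.97% (with Sgpp2). Of the 16 mitochondrial genes, 4 shared none and 2 shared over 10%, Iars2 and Cars2 at 19.7% (with Naxd). Hars and Hars2, a cytosolic and mitochondrial pair that overlap on opposite strands, shared 165 words. An annotated gene overlapped on the opposite strand for 9 cytosolic and 8 mitochondrial members.

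Other genes of the charging step were counted in the same way. Beside the counts that follow, 7.31% of all genes tested had an unadjusted limma p under 0.05. Groups that did not overlap were found for 4.01% of all genes. Of the 6 genes of scaffolds and other synthetases, 3 were higher and 3 lower (median 0.01), and 0 had an unadjusted p under 0.05. Aimp1 and Aimp2, which are scaffolds of the multisynthetase complex, differed by 0.16 (SE 0.23) and 0.13 (SE 0.21). Eef1e1, a small scaffold protein also known as AIMP3, differed by −0.22 (SE 0.26).

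Of the 12 amino acid synthesis genes, 8 were higher and 4 lower (median 0.10), and 2 had an unadjusted p under 0.05, with 0 past the adjusted threshold. Mthfd2, a mitochondrial folate enzyme, read 6.88, 6.96, 6.56 and 6.69 in vehicle and 7.21, 6.91, 6.95 and 7.40 in PAHSA, a difference of 0.35 (SE 0.14). Psph, the last enzyme of serine synthesis, read 5.30, 5.38, 5.52 and 4.94 in vehicle and 5.56, 5.62, 5.64 and 6.14 in PAHSA, a difference of 0.45 (SE 0.18). For Psph every PAHSA library was above every vehicle library, with replicate 4 far above the rest, while for Mthfd2 the groups overlapped. Aldh18a1, an enzyme of proline synthesis, differed by 0.16 (SE 0.12), and Asns, which makes asparagine, by 0.06 (SE 0.13). Asns was 8.93 in PAHSA replicate 4 and 8.31 to 8.55 in the other 7 libraries.

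Of the 9 amino acid transporter genes, 6 were higher and 3 lower (median 0.01), with 0 at an unadjusted p under 0.05. Slc3a2, the heavy chain that carries several amino acid exchangers to the membrane, was 8.27 to 8.40 in vehicle and 8.45 to 8.52 in PAHSA. Its groups did not overlap, but the difference was 0.13 (SE 0.08; limma p = 0.108, exact permutation p = 0.0286). Slc7a11, the cystine and glutamate exchanger, differed by −1.08 (SE 0.72), and Slc38a2, a carrier of small neutral amino acids, by −0.24 (SE 0.16).

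Of 19 tested regulators and markers of the integrated stress response, 11 were higher and 8 lower (median 0.15); 3 had an unadjusted p under 0.05 and 0 passed the adjusted threshold. Atf4 itself was 7.95, 8.03, 7.93 and 7.90 in vehicle and 8.24, 8.03, 7.99 and 8.20 in PAHSA. Its PAHSA replicates 1 and 4 were above all vehicle libraries and replicates 2 and 3 lay at the upper end of the vehicle range, a difference of 0.16 (SE 0.09; limma p = 0.101, exact permutation p = 0.0857). ATF4 is known to be controlled largely at translation, which these data do not measure.

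Ddit3, which encodes the stress factor CHOP, was 5.84, 6.02, 6.19 and 5.88 in vehicle and 7.001, 6.07, 6.38 and 6.45 in PAHSA. Only PAHSA replicate 2 lay inside the vehicle range, and the difference was 0.49 (SE 0.19; limma p = 0.0243, adjusted p = 0.671; exact permutation p = 0.0571). Ddit3 overlaps the methionine synthetase gene Mars on the opposite strand and shares 37 words of 31 bases with it. Trib3, a pseudokinase induced by ATF4 and CHOP, differed by 0.40 (SE 0.18), with PAHSA replicate 2 among the lowest libraries.

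Lower in PAHSA were Nupr1, a small stress-induced nuclear protein, at −1.26 (SE 0.52), and Eif2s1, the alpha subunit of the translation initiation factor eIF2, at −0.21 (SE 0.09; limma p = 0.0468, exact permutation p = 0.0286). Nupr1 was highest in vehicle replicate 4 (9.78) and lowest in PAHSA replicate 4 (6.37), which were also the libraries with the highest and the lowest acinar share; the part of the acinar share was not tested. Eif2s1 was 7.10 to 7.23 in vehicle and 6.87 to 7.02 in PAHSA, and these groups did not overlap.

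Elongation factors receive the charged tRNAs. Of 6 cytosolic elongation factors, 3 were higher and 3 lower (median −0.03), with 0 at an unadjusted p under 0.05. Eef1g and Eef1d, subunits of the exchange factor complex, differed by −0.18 (SE 0.12) and 0.10 (SE 0.12), and Eef1a1, which delivers charged tRNA to the ribosome, by 0.07 (SE 0.09).

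Of 17 genes of mitochondrial translation and tRNA maturation, 10 were higher and 7 lower (median 0.08), with 1 at an unadjusted p under 0.05. Mto1, which modifies the wobble base of mitochondrial tRNAs, was 4.76, 4.38, 4.75 and 4.64 in vehicle and 4.36, 3.65, 3.89 and 4.06 in PAHSA. Every PAHSA library was below every vehicle library, though PAHSA replicate 1 and vehicle replicate 3 nearly met. The difference was −0.64 (SE 0.22; limma p = 0.0142, adjusted p = 0.671; exact permutation p = 0.0286). Mtfmt, which formylates the initiator tRNA of mitochondria, differed by 0.71 (SE 0.33) and Tufm, the mitochondrial elongation factor that carries charged tRNA, by −0.40 (SE 0.21).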

How the data were processed

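Islet RNA from 4 vehicle and 4 PAHSA samples was extracted with a column kit and made into libraries with Nextera XT, a kit that does not mark strand, per the labels' protocols. Kallisto and limma were used, per the submitters' processing notes; versions and build are not given in the sources used. The deposited values are log2 CPM per Ensembl gene, filtered on low values before deposit. Symbols and lengths came from GENCODE M21 (49 identifiers had no symbol). Genes with a mean log2 CPM above 0 were tested (12231, with 1494 left out), in R 4.3.3 with limma 3.58.1 (eBayes with trend, group as the only term, two-sided), adjusted over all genes tested at 0.05. Exact permutation tests used all 70 assignments of the 8 libraries. Estimated counts were recovered from the smallest steps of each column and describe depth only: 47.8% to 51.5% of them lay within 0.01 of a whole number.

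The members and lists were chosen with earlier results of these data known. Full values are given for the 8 cytosolic and 6 mitochondrial genes with the smallest p and for the 3 and 2 with the highest level per kilobase. In addition Aimp1, Aimp2, Eef1e1, Atf4, Ddit3, Trib3, Asns and the 3 genes with the smallest p of each related list are named; 1 gene and 1 sequence that these rules select are not reported here. Shared words of 31 bases were counted in GENCODE transcripts. Markers of T, NK and B cells had 2 of 12 genes in the table and 0 tested. Endothelial markers (3 tested) had a median difference of −0.41, macrophage and dendritic cell markers (2 tested) 0.08, alpha cell markers (7 tested) 0.18, beta cell markers (10 tested) 0.28, and delta and PP cell markers (5 tested) −0.10. Protein sequences were not analysed here. Alternatives covered filters, scaling, weights, covariates, the replicate block and each library left out.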

Additional observations from a re-analysis of the deposited data

Results flagged for a closer look

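In 5 of the 72 groups of 4 libraries (36 genes in 2 groups), 1 library stood far from the other 3, with a gap above Dixon's critical value at 95%; chance flags about 5% of groups. Tars was 7.46 in PAHSA replicate 4 and 6.91 to 6.999 in the other PAHSA libraries. Vars was 7.12 in PAHSA replicate 4 and 6.39 to 6.49 in the others. Cars2 was 4.64 in PAHSA replicate 2 and 3.77 to 3.91 in the others. Pars2 was 0.82 in PAHSA replicate 1 and 3.25 to 3.63 in the others. Sars2 was 3.85 in PAHSA replicate 3 and 2.53 to 2.71 in the others. The 2 cytosolic genes stood out in PAHSA replicate 4, which was the highest library for 13 of the 20 cytosolic genes.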

How the results depend on the processing

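Under all 20 alternatives 0 cytosolic and 0 mitochondrial genes passed the adjusted threshold. The count of cytosolic genes at an unadjusted limma p under 0.05, 1 as reported, was 3 with quantile normalization, 2 with CPM rescaled to the same sum in each library, with array weights and with the stellate marker mean as a covariate, and 0 without the trend and with the acinar covariate; the 2 with the stellate covariate were Cars and Iars, not Eprs. With 1 library left out it ran from 0 (vehicle replicate 1 or 3, or PAHSA replicate 4) to 3 (PAHSA replicate 3). The mitochondrial count, 1 as reported, was 2 with the acinar covariate (Iars2 and Lars2, not Ears2) and 0 with the stellate covariate, and ran from 0 (without vehicle replicate 1, PAHSA replicate 1 or PAHSA replicate 4) to 1 with 1 library left out. With the stellate covariate the median difference was 0.22 for cytosolic and −0.079 for mitochondrial genes, against 0.08 for each; the cause was not tested. Leaving out 1 library gave medians of 0.003 to 0.15 (cytosolic) and 0.04 to 0.12 (mitochondrial).

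The 3 shared replicate numbers did not pair the libraries (correlations of deviations −0.02, −0.02 and −0.02 over 12231 genes). With the replicate block, in the 6 libraries whose numbers occur in both groups, 1 cytosolic and 0 mitochondrial genes had an unadjusted p under 0.05; Eprs differed by 0.40 and Ears2 by 0.76. Over the 16 alternatives that can move an estimate, 251 of 256 differences of named members kept their sign, though not their size, and 5 changed sign: Lars2 was −0.04 in those 6 libraries with and without the block, −0.12 with the stellate covariate and −0.01 without PAHSA replicate 2 (0.21 without vehicle replicate 4 was the highest with 1 library left out), and Iars2 was −0.035 and Rars2 −0.081 with the stellate covariate. With 4 libraries per group, mitochondrial differences were measured less precisely (median SE 0.30) than cytosolic ones (0.15).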
